A study of Mus musculus with 26 samples.

Results

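The genes described here encode the proteasome, its activators, its inhibitor and its assembly chaperones, measured by ribosome footprinting and RNA-Seq in mouse striatum. Members were the transcripts whose gene symbol starts with Psma, Psmb, Psmc, Psmd, Psme, Psmf or Psmg, a rule that uses no measured value. It took 37 of 8576 transcripts in the table of GS LRRK2 TG (the GS table), 37 of 8576 in that of GS/DA LRRK2 TG (the GS/DA table) and 38 of 9561 in that of LRRK2 KO (the KO table), where Psmg3 was added. The members cover 11 of the 14 constitutive subunits of the 20S core and 15 of the 17 subunits of the 19S regulatory particle that carry these symbols. Psmb1, Psmb5, Psmb7, Psmc5, Psmd4 and Psmg1, and the inducible or tissue-specific Psma8, Psmb8, Psmb9 and Psmb11, are not in these tables and were not analysed here.

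The proteasome degrades proteins tagged with ubiquitin. Its 20S core is a barrel of outer alpha rings, which gate the entry, and inner beta rings, some of whose subunits cut the substrate. The 19S particle caps the barrel: ATPases of its base unfold the substrate, and its lid removes ubiquitin. Each 26S complex holds equal numbers of the subunits of a ring, so balanced synthesis can be read from how evenly ribosomes cover their coding sequences, as far as ribosomes elongate alike on them.

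The study asked how LRRK2, a kinase whose G2019S mutation causes inherited Parkinson's disease, alters translation in the caudate putamen. Transgenic C57BL/6 mice carried LRRK2 with G2019S (GS LRRK2 TG) or with G2019S and the kinase-inactivating D1994A (GS/DA LRRK2 TG), and were set against mice without the transgene (non-TG control). A tTA driver under the CaMKII promoter, active in forebrain neurons, switched the transgenes on once doxycycline chow was withdrawn after weaning. Mice lacking Lrrk2 (LRRK2 KO) were set against wild-type mice (WT), with striatal tissue of several mice of both sexes pooled per library and an age of 3 months on the labels. The labels list 3 footprinting and 3 RNA-Seq libraries of non-TG control, 2 and 2 of GS LRRK2 TG, 2 and 2 of GS/DA LRRK2 TG, and 3 and 2 each of WT and LRRK2 KO. A further footprinting library of the ventral midbrain of WT and of LRRK2 KO was not analysed here.

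The tables give group means, and reads of single libraries were recovered from 10 of 12 columns of means. Every recovered mean resolved into 2 libraries, also where the labels list 3, and the columns do not name them. Control means of the GS table did not resolve, so that comparison has no spread between control libraries and no test. Recovered footprinting libraries of the transgenic tables held 7385159 to 17558979 reads in coding sequences, and their RNA-Seq libraries 8696465 to 14546606. In the KO table these totals were 2877416 to 6031752 for footprinting and 3129554 to 10832774 for RNA-Seq. Levels are given as normalized reads, changes as the log2 ratio of genotype to control, and translational efficiency (TE) as the log2 ratio of the footprinting to the RNA-Seq mean. Both transgenic comparisons draw on non-TG control libraries, so they are not independent, and the 3 tables were normalized separately.

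Lrrk2 itself was examined first, on chromosome 15 from 91503606 to 91646551, plus strand of mm9. Lrrk2 footprints stood at 1224 and 1445 normalized reads in the 2 control libraries of the GS/DA table and at 4766 and 7267 in GS/DA LRRK2 TG. In GS LRRK2 TG they stood at 7052 and 3320, beside a non-TG control mean of 2524 in the GS table (change of the means 1.04). The non-TG control mean of the GS/DA table was 1335. Lrrk2 footprints stood at 690 and 400 in WT and at 150 and 102 in LRRK2 KO. All footprinting libraries of a genotype thus lay on the side of their control that the label gives, where control libraries were recovered. Lrrk2 RNA-Seq was 733 and 1278 in WT and 270 and 423 in LRRK2 KO, while the RNA-Seq values of non-TG control, 560 and 5233, overlapped those of GS/DA LRRK2 TG, 404 and 5038. The GS LRRK2 TG libraries held 214 and 3550 Lrrk2 RNA-Seq reads, and the change of the means was -0.16.

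Markers of the dissected tissue were checked next. All 10 of 10 striatal neuron markers were listed in each table, with Ppp1r1b the most abundant. In the KO table their summed footprints were 25177 and 35415 in WT and 25233 and 37637 in LRRK2 KO. In the GS/DA table, whose most abundant striatal markers could not be resolved into libraries, the summed group means were 142436 in non-TG control and 115106 in GS/DA LRRK2 TG. Slc17a7, Tbr1 and Neurod6, markers of cortical projection neurons, were listed there, and Neurod2 was not. Summed footprints of the 3 listed were 1056 and 1630 in the non-TG control libraries against 2574 and 4104 in GS/DA LRRK2 TG, and their summed RNA-Seq was 1965 and 915 against 4030 and 2408. The GS/DA LRRK2 TG libraries were therefore all above the controls for these cortical markers, most abundant among them Slc17a7. In GS LRRK2 TG the summed means of the 3 cortical markers were 1612 in control and 1366 in the transgenic mice for footprinting, and 1851 and 1071 for RNA-Seq, with a Slc17a7 RNA-Seq change of -0.92. No endothelial marker of 5 was listed in any table. In such bulk tissue, fewer cells of a type and less RNA per cell cannot be told apart, and the part of these markers in the proteasome values was not tested.

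The 20S core was the most densely translated part of the complex. In non-TG control of the GS/DA table, the median footprint density of its 11 listed subunits was 4928 normalized reads per kilobase of CDS, against 2197 for the 15 listed 19S subunits and 476 over 8310 transcripts with a CDS match. In each table's control the core median exceeded the density of 93.0% to 93.3% of transcripts. The median of the 19S subunits exceeded that of 85.7% to 88.1% of transcripts. On the log2 scale of density, the core stood above the 19S particle by 1.16 in the control of the GS table, 1.17 in that of the GS/DA table and 0.86 in WT. The same difference of RNA-Seq densities was 1.00, 1.00 and 0.58.

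Within the core, footprint densities lay close together. Across the 11 subunits the SD of log2 footprint density was 0.198, 0.184 and 0.262 in the controls of the GS, GS/DA and KO tables, an order kept below, and the highest subunit stood 1.44, 1.43 and 1.81 times the lowest. RNA-Seq densities of the same subunits had an SD of 0.577, 0.537 and 0.454 and a range of 3.96, 3.44 and 2.65 times. Footprint density thus varied less than mRNA density among core subunits, whereas over all transcripts its SD was 1.86 against 1.76 for RNA-Seq in the control of the GS table. This order also held in each recovered library: the core SD was 0.1498 to 0.336 in the 10 footprinting libraries and 0.386 to 0.972 in the 10 RNA-Seq libraries.

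The alpha ring, which opens and closes the channel, showed the contrast gene by gene. In non-TG control of the GS/DA table, log2 footprint density ran from 11.99 for Psma5 to 12.28 for Psma6, a range of 1.22 times. Log2 RNA-Seq density of the ring ran from 10.67 for Psma1 to 12.19 for Psma7. The 2 Psma1 RNA-Seq libraries held 1164 and 1407 normalized reads and its footprinting libraries 3146 and 3570, so Psma1 had the highest control TE of the ring, 1.39. The Psma7 libraries held 3284 and 3676 normalized RNA-Seq reads and 2941 and 3481 footprints, a log2 TE of -0.12. With coding sequences of 789 and 744 bases, these 2 subunits thus had footprint levels that overlapped between libraries and RNA-Seq levels that did not.

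The listed beta ring subunits were Psmb6, which carries a cutting site, and the structural Psmb2, Psmb3 and Psmb4. Their log2 footprint density spanned 12.28 to 12.51 in non-TG control of the GS/DA table, with an SD of 0.115 against 0.494 for RNA-Seq. Psmb4 had the highest footprint density of all members in each control, at 12.14, 12.51 and 10.65. Psmb2 differed most between its RNA-Seq libraries in this ring, with 2297 and 878 normalized reads in the 2 non-TG control libraries and 2840 and 3258 footprints. Taking core subunits together, log2 TE and log2 RNA-Seq density had a Spearman's rho of -0.86, -0.87 and -0.89 in the 3 controls (n = 11 genes, which share libraries, and TE contains the RNA-Seq value).

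The base of the 19S particle holds the ATPases. Footprint densities of the 5 listed ATPase genes had an SD of 0.167, 0.193 and 0.174 and a highest value 1.34, 1.43 and 1.34 times the lowest. Their RNA-Seq densities had an SD of 0.823, 0.879 and 0.318. Psmc6, at 9.82, 9.95 and 9.21, had the lowest log2 RNA-Seq density of the ATPases in every control, and its footprint density of 10.85, 11.26 and 9.31 lay amid the others. Psmc1 and Psmc3 stood at the opposite end, with a log2 TE of -1.05 and -0.87 in the control of the GS table against 1.03 for Psmc6. Psmd1 and Psmd2, the large scaffold subunits of the base, had log2 footprint densities of 10.29 and 10.90 in non-TG control of the GS/DA table.

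The lid, which holds the deubiquitinase Psmd14, was less even. Its 8 subunits spanned 2.28, 2.44 and 2.03 times in footprint density, with Psmd14 highest at 11.27, 11.69 and 9.63 on the log2 scale. Psmd12 was lowest in both transgenic tables, at 10.08 and 10.40, and Psmd11 in WT, at 8.60. Over all 15 listed 19S subunits the SD of log2 footprint density was 0.362, 0.376 and 0.329, against 0.630, 0.652 and 0.448 for RNA-Seq.

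Subunits that are not part of every 26S complex were synthesised at lower density. Among activators in non-TG control of the GS/DA table, log2 footprint density was 10.72 for Psme3, which forms a nuclear cap, 9.92 and 8.73 for Psme1 and Psme2, the partners of an interferon-inducible cap (Psme2 is uncertain, since reads can be shared with its near-identical copy Psme2b), and 6.48 for Psme4, a large single-chain activator. Psmb10, an inducible catalytic subunit that replaces Psmb7, had 8.05. Psmf1, the inhibitor PI31, had 9.72. Assembly chaperones of the core, Psmg2 and Psmg4, had 9.62 and 9.68, and those of the 19S base, Psmd5, Psmd9 and Psmd10, had 9.96, 9.78 and 9.24. Their RNA-Seq densities were 8.87 and 10.71 for Psmg2 and Psmg4, so these 2 genes had nearly equal footprint densities from unequal mRNA densities in this control. Psmd5, Psmd9 and Psmd10 showed the reverse, with RNA-Seq densities of 9.54, 9.41 and 9.56 (SD 0.0823, against 0.376 for footprints). For the core chaperones WT differed, with 7.59 and 7.29 for footprints of Psmg2 and Psmg4 and 7.77 and 7.88 for RNA-Seq. Each of these genes lay under the lowest core subunit in footprint density, and Psme3 also lay above the 19S subunits Psmd1, Psmd11 and Psmd12. In the 2 other controls the same genes had log2 footprint densities of 6.16 to 10.33 (GS table) and 5.16 to 8.78 (WT, with Psmg3 at 7.81).

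**Figure D1:**
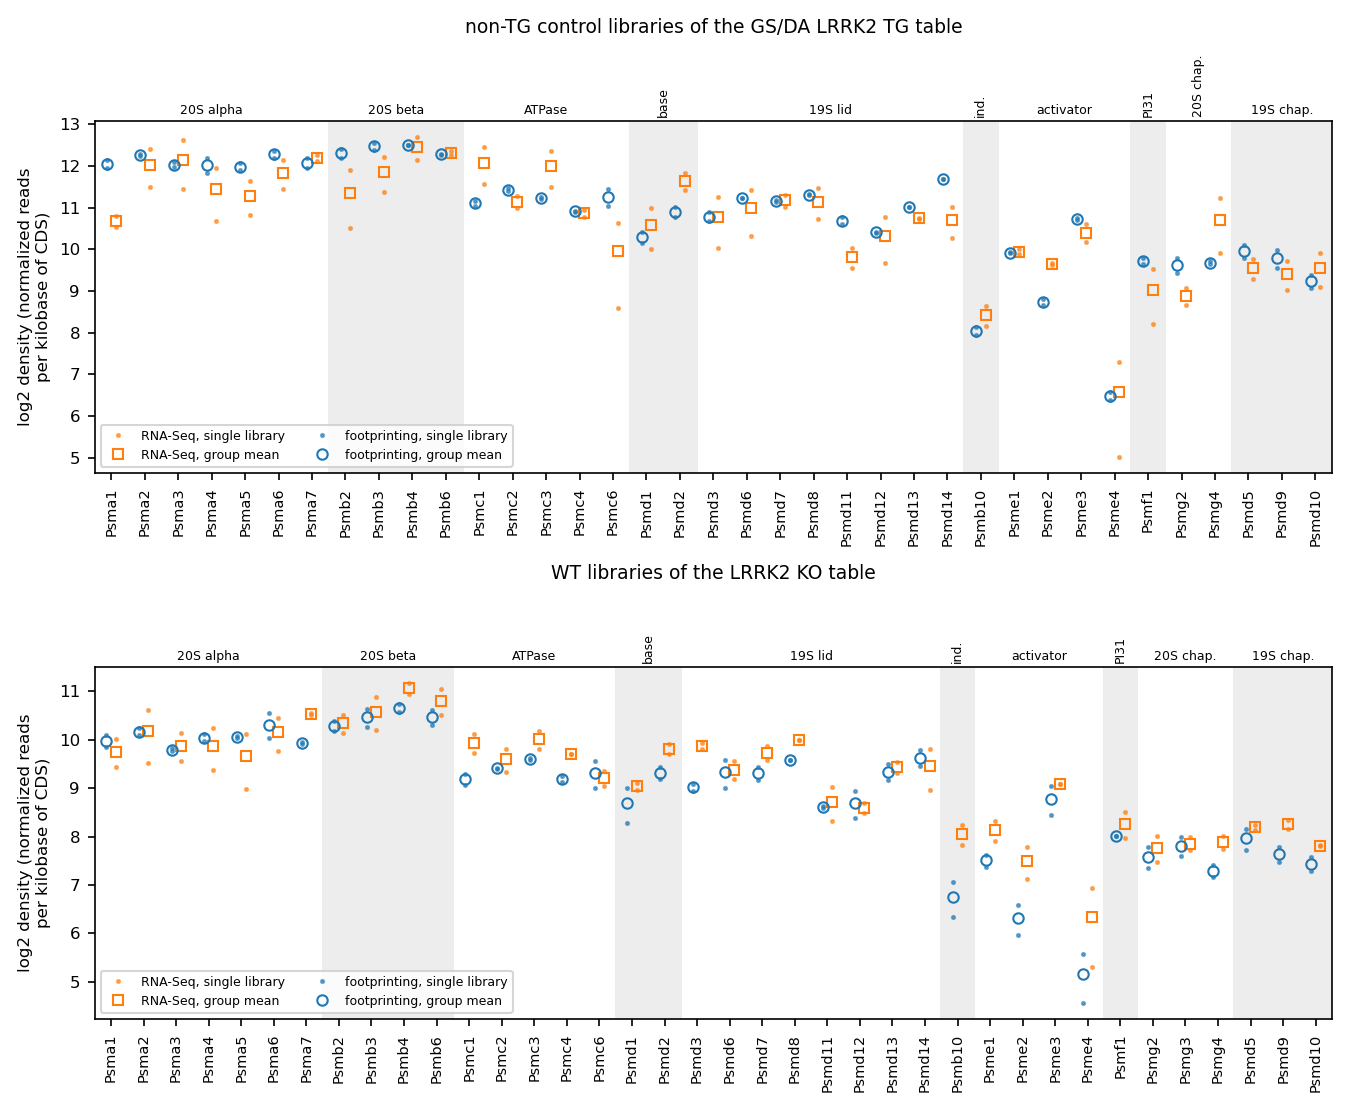
Log2 density of normalized footprinting (circles) and RNA-Seq (squares) reads per kilobase of CDS for each member, grouped by role, in non-TG control of the GS/DA table and in WT. Large symbols are group means and dots the 2 recovered libraries; the footprint densities of the 20S core lie within 1.43 times of each other in non-TG control and 1.81 times in WT.

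RNA-Seq of the transgenic tables differed widely between libraries of a group, and among members this difference followed base composition. The log2 ratio of library 2 to library 1 in RNA-Seq and the GC content of the CDS had a Spearman's rho of -0.72 in GS LRRK2 TG, -0.65 in non-TG control and -0.77 in GS/DA LRRK2 TG (n = 37 genes that share the libraries). Over all transcripts with both values rho was -0.79, -0.78 and -0.80. Psme4, with 42.6% GC, had the highest ratio of members, 12.2 times between the GS LRRK2 TG libraries, 4.90 between non-TG control and 9.57 between GS/DA LRRK2 TG libraries. For footprinting the highest ratio among members was 1.81, 1.35 and 1.57 times, and the footprinting ratio had a rho with GC of 0.50, -0.49 and -0.65. Library numbers of GS LRRK2 TG were not aligned with those of a control, so the sign of rho in that group is arbitrary in both assays. In the KO table the RNA-Seq ratio of members reached 3.10 times in WT and 2.81 in LRRK2 KO, with a rho with GC of 0.29 and -0.10 (n = 38), and the footprinting ratio had a rho of 0.75 and 0.40. The GC content also moved with levels: in the core, log2 RNA-Seq density and GC had a rho of 0.65, 0.52 and 0.82, and log2 footprint density and GC had 0.76, 0.60 and 0.65 (n = 11 genes). The part of base composition in the wider spread of mRNA densities was not tested.

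**Figure D2:**
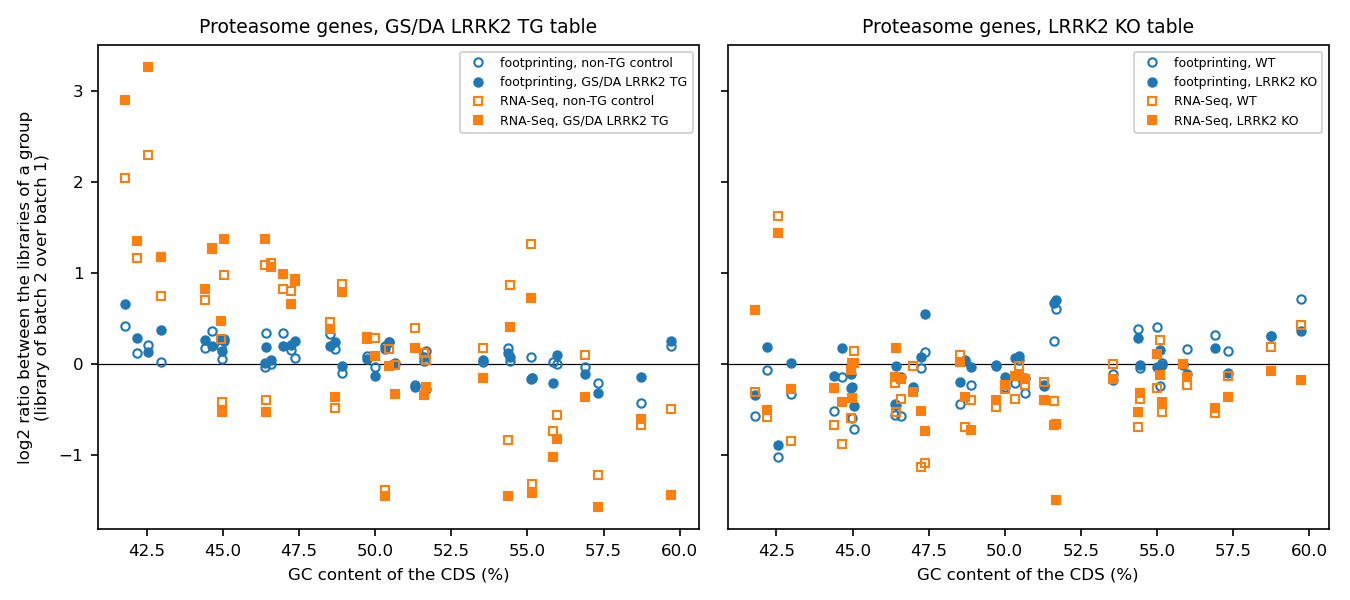
Log2 ratio between the 2 recovered libraries of a group against the GC content of the CDS in percent, for the members, with control groups as open and genotypes as filled symbols. In the GS/DA table the RNA-Seq ratios fall with GC content (Spearman's rho -0.65 and -0.77), and the footprinting ratios are smaller.

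The GS LRRK2 TG comparison asks what added LRRK2 with the disease mutation does, and extra LRRK2 and the mutation cannot be told apart in it. Proteasome genes had a median footprinting change of -0.01, against 0.00 over all transcripts, with 17 higher and 20 lower than in non-TG control. The 11 core subunits all lay within 0.1 of 0, as did 31 of 37 members (83.8%) and 60.3% of all transcripts. The SD of the change was 0.0813 among members and 0.151 over all transcripts, and members are translated more than most transcripts, whose part in this was not tested. Median RNA-Seq change was 0.02 against -0.02 and median TE difference -0.02 against 0.02. No member reached a z score of 1.5 either way for its TE difference over the table: 0 of 37 were TE up, beside 8.01% of all transcripts, and 0 were TE down, beside 3.91%.

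The highest footprinting changes in GS LRRK2 TG were 0.23 for Psme4, 0.11 for the lid subunit Psmd8 and 0.09 for the alpha subunit Psma6, and the lowest were -0.17 for the 19S chaperone Psmd5, -0.12 for Psmd7 and -0.11 for Psmd2. Psmb10, whose level lay under the minimum for this ranking, also had 0.23, from group means of 186 and 217 normalized footprints. TE differences ran from -0.22 for Psmc4, -0.21 for Psmc3 and -0.20 for Psme2 to 0.25 for Psma1, 0.26 for Psmc6 and 0.29 for Psme4. Among members above the level minimum, RNA-Seq changes were lowest for Psmd14 (-0.23), Psma4 (-0.21) and Psmc2 (-0.18). They were highest for Psme2 (0.19), Psmc4 (0.17) and Psmc3 (0.16). Psmg4, under that minimum, had an RNA-Seq change of 0.21. Between the 2 GS LRRK2 TG libraries, footprints of Psme4 were 568 and 403 and RNA-Seq reads 67 and 822, so the libraries of this group differed more than its mean did from the control mean of 465 RNA-Seq reads.

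In the GS/DA LRRK2 TG comparison, which asks what added LRRK2 without kinase activity does, the median footprinting change of proteasome genes was -0.00 against -0.01 over all transcripts. All 11 core and all 15 listed 19S subunits lay within 0.1 of 0, as did 31 of 37 members (83.8%) beside 60.5% of all transcripts. RNA-Seq was higher in GS/DA LRRK2 TG for 11 of 37 members (29.7%) and for 64.7% of all transcripts, with medians of -0.05 and 0.06. TE differences had a median of 0.02 among members and -0.05 over all transcripts. With changes centred on all transcripts, 9 of 37 members were higher in RNA-Seq and 28 of 37 in TE. Choosing 1 library per group and assay moved the median RNA-Seq change of members between -0.33 and 0.22 and the median TE difference between -0.24 and 0.34. These choices include pairs across the library batches described below. Within batches, the median RNA-Seq change was -0.02 in the first and -0.12 in the second. Of 37 members, 17 were higher in the first and 10 in the second. The RNA-Seq changes of members in the 2 batches had a Spearman's rho of -0.58.

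Among members above the level minimum in GS/DA LRRK2 TG, TE differences ran from -0.48 for Psmc6, -0.25 for Psme4 and -0.16 for the lid subunit Psmd3 to 0.13 for Psmd10, 0.13 for Psmc3 and 0.20 for Psme2. Among the same members, RNA-Seq changes were lowest for Psmg2 (-0.19), Psma7 (-0.15) and Psmc1 (-0.14). They were highest for Psmc6 (0.44), Psme4 (0.32) and Psmd1 (0.17). The activator Psme3 had a footprinting change of -0.09, next to Psmd9 and Psmg2 at the low end, and Psmc3 had 0.08, next to Psme2 and Psme1 at the high end.

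Psme2 was TE up in GS/DA LRRK2 TG, 1 of 37 members beside 3.65% of transcripts, and Psmc6 was TE down, 1 of 37 beside 7.36%. Psme2 footprints were 299 and 330 normalized reads in non-TG control and 392 and 324 in GS/DA LRRK2 TG, and its RNA-Seq reads 580 and 600 against 638 and 534. The groups overlapped in both assays, and the TE difference of 0.20 (z = 1.58) came mainly from 1 footprinting library: Psme2 kept a z of 1.5 in 1 of the 16 choices of 1 library per group and assay. Over those choices 0 to 4 members were TE up and 0 to 2 TE down.

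Psmc6, an ATPase of the 19S base, had the lowest TE difference of members in GS/DA LRRK2 TG and the highest in LRRK2 KO. Its RNA-Seq reads were 450 and 1861 in non-TG control and 370 and 2759 in GS/DA LRRK2 TG, and its footprints 2443 and 3263 against 2149 and 3383. The groups overlapped in both assays, with 1 low and 1 high RNA-Seq library on each side. Changes of the means were 0.44 for RNA-Seq and -0.04 for footprinting, giving a TE difference of -0.48 (z = -2.34), which was down in 6 and up in 2 of the 16 choices of single libraries. In WT the RNA-Seq libraries held 762 and 617 reads and in LRRK2 KO 426 and 641, with footprints of 886 and 597 against 908 and 714. Here 1 LRRK2 KO RNA-Seq library stood apart as low, the changes were -0.37 and 0.13, and the TE difference of 0.50 (z = 1.76) kept a z of at least 1.5 in 3 of 16 choices. In GS LRRK2 TG the Psmc6 RNA-Seq libraries held 150 and 1714 reads and the footprinting libraries 2753 and 1810, a TE difference of 0.26 from the group means. With 41.8% GC, Psmc6 has the lowest GC content of the members.

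Psmb10, Psme2 and Psme1 had the highest footprinting changes of members in GS/DA LRRK2 TG. Psmb10 footprints were 202 and 231 in non-TG control and 237 and 282 in GS/DA LRRK2 TG, a change of 0.26 between means, and the groups did not overlap. Its RNA-Seq reads, 327 and 233 against 531 and 196, did overlap. Psme1 footprints were 720 and 736 against 788 and 827, again without overlap, with a change of 0.15. Groups of 2 and 2 libraries did not overlap in footprinting for 10 of 37 members (27.0%) and for 24.3% of all transcripts in GS/DA LRRK2 TG, and for 7 of 38 (18.4%) and 12.6% in LRRK2 KO. In LRRK2 KO the same genes had footprints of 67 and 109 in WT and 69 and 88 in LRRK2 KO (Psmb10), and of 125 and 149 against 120 and 191 (Psme1), and the groups overlapped. Of 8 genes of the interferon response and antigen presentation, 5 were listed and 5 of 5 had higher footprinting means in GS/DA LRRK2 TG, with a median change of 0.22. They also had 5 of 5 higher in GS LRRK2 TG (median 0.18), and 1 of 5 in LRRK2 KO (median -0.21). Summed footprints of the 5 were 1487 and 1831 in non-TG control against 1780 and 2124 in GS/DA LRRK2 TG, with B2m the most abundant and Tap1, Tap2 and Irf1 not listed. Microglial markers, 6 of 9 listed with Csf1r the most abundant and Tyrobp, Aif1 and P2ry12 not listed, had summed footprints of 2962 and 3697 against 3201 and 4049. Astrocyte markers, most abundant among them Slc1a3 and 5 of 5 with higher footprinting means, had sums of 9512 and 8575 against 10481 and 8928. The groups overlapped in each of these 3 footprint sums. Within the library batches described below, each footprint sum was higher in GS/DA LRRK2 TG in both batches. In RNA-Seq, the 5 interferon and antigen presentation genes had sums of 1070.5 and 967 in non-TG control against 1359 and 1303, without overlap. Their RNA-Seq means were 5 of 5 higher in GS/DA LRRK2 TG, with a median change of 0.34. Microglial and astrocyte RNA-Seq sums overlapped between the groups. The part of these lists in the values of Psmb10 and Psme1, like that of the cortical markers, was not tested.

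The lowest footprinting changes of members in GS/DA LRRK2 TG were those of 3 of the 5 listed assembly chaperones, Psmg4, Psmd9 and Psmg2. Psmg4 footprints were 294 and 310 in non-TG control and 265 and 236 in GS/DA LRRK2 TG, without overlap, and the changes of the means were -0.27 for footprinting and -0.44 for RNA-Seq, whose libraries held 355 and 884 against 346 and 570. Psmg2, its fellow chaperone of the core, had 550 and 696 against 525 and 598 (change -0.15, and -0.19 for RNA-Seq), and Psmd9, a chaperone of the 19S base, had 673 and 497 against 547 and 496 (change -0.17), with overlapping groups. Within batches of libraries, as paired below, all 3 were lower in both batches and both assays, with Psmd9 footprints at 497 and 496 in the second batch. Psmd5 and Psmd10 had changes of 0.02 and -0.00. In LRRK2 KO, Psmg4 footprints were 63 and 53 in WT and 67 and 75 in LRRK2 KO, a change of 0.29 in the opposite direction, and Psmd9 had 119 and 147 against 94 and 116, a change of -0.34. Neither gene's groups overlapped there, at these low levels. Psmg2 had a footprinting change of 0.03 in LRRK2 KO. In GS LRRK2 TG the footprinting changes of Psmg4, Psmd9 and Psmg2 were 0.02, -0.04 and -0.02.

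No member was called in GS/DA LRRK2 TG by any fit. Over 8349 transcripts with all libraries recovered, limma called 0 members and 0 transcripts (0%) for footprinting, 0 and 0 (0%) for RNA-Seq and 0 and 0 (0%) for the interaction of genotype and assay, with 155, 0 and 0 transcripts at an unadjusted p under 0.05. Lrrk2 itself was not called here (log2 change 2.14, limma adjusted p = 0.623), so this fit cannot tell members with a change from members without. Leaving out 1 library in turn, limma called 0.0240% to 0.323% of transcripts for footprinting and no member, with 150 to 355 transcripts at an unadjusted p under 0.05 for footprinting, 2 to 51 for RNA-Seq and 0 to 3 for the interaction. Libraries of both groups were also paired into batches by the difference between libraries that the groups share (Spearman's rho 0.741 for footprinting and 0.978 for RNA-Seq across transcripts), a pairing read from the values. Footprinting and RNA-Seq libraries were paired separately, so the first batch of 1 assay need not be that of the other. With that batch as a block, limma called 39 transcripts (0.467%) for footprinting, 0 (0%) for RNA-Seq and 0 (0%) for the interaction, and 1186, 133 and 34 had an unadjusted p under 0.05. No member was among the 39, and Psmb10 (log2 change 0.25, limma adjusted p = 0.211, higher in both batches) and Psmg4 (-0.26, limma adjusted p = 0.2495, lower in both batches) were the 2 members with an unadjusted p under 0.05. All 3 listed cortical markers were among the 39, and so was Lrrk2 (log2 change 2.14, limma adjusted p = 0.00107). Within batches, 10 members were higher in both for footprinting, 11 lower in both and 16 in opposite directions, and for RNA-Seq the counts were 3, 13 and 21, with median changes of -0.02 and -0.12.

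In the LRRK2 KO comparison, which asks what the loss of Lrrk2 does, the median footprinting change of proteasome genes was 0.02, the same as over all transcripts, and 27 of 38 members (71.1%) lay within 0.1 of 0 beside 48.1% of transcripts. All group means reached the level minimum for 28 of 38 members but for 3276 of 9561 transcripts, and the part of level in these shares was not tested. Footprinting means of all 7 alpha ring subunits were higher in LRRK2 KO, with changes from 0.01 for Psma5 to 0.12 for Psma1, and those of all 4 listed beta ring subunits were lower, with changes from -0.03 for Psmb6 to -0.10 for Psmb3. With changes centred on all transcripts, 6 of 7 alpha and 0 of 4 beta subunits were higher. RNA-Seq means were lower for 10 of 11 core subunits and 26 of 38 members, and the median RNA-Seq change was -0.06 against 0.01 over all transcripts. The 19S subunits had 11 of 15 higher in footprinting and 11 of 15 lower in RNA-Seq.

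The directions of alpha ring footprints and of core RNA-Seq did not recur in both batches of libraries. With WT and LRRK2 KO libraries paired as above (rho 0.762 for footprinting and 0.683 for RNA-Seq), 2 of 7 alpha subunits had higher footprints in the first batch and 7 of 7 in the second. Beta subunits were lower in 2 of 4 and 3 of 4. RNA-Seq, whose libraries were paired separately, was lower for 10 of 11 core subunits in its own first batch and 4 of 11 in its second. Footprints of 19S subunits were higher for 8 of 15 in the first batch and 11 of 15 in the second, 6 of them in both, and the median RNA-Seq change of all members was -0.06 and -0.01. Psma1, higher in both batches for footprints like Psma7, had 869 and 725 in WT and 901 and 836 in LRRK2 KO, and its RNA-Seq reads were 822 and 544 against 592 and 566. Psma5 had RNA-Seq reads of 807 and 368 in WT and 556 and 387 in LRRK2 KO. For both, the first WT RNA-Seq library was the high one and the LRRK2 KO values lay between the WT values. Across all members, 9 were higher in both batches for footprinting, 6 lower in both and 23 opposite, and for RNA-Seq the counts were 6, 12 and 20.

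Among members above the level minimum, the lowest footprinting changes in LRRK2 KO were -0.12 for the lid subunit Psmd13, -0.10 for Psmb3 and -0.09 for Psmb4, and the highest 0.13 for Psmc6, 0.12 for Psma1 and 0.12 for Psmd12. Among the same members, RNA-Seq changes were lowest for Psmc6 (-0.37), Psma5 (-0.32) and Psmd14 (-0.24). They were highest for Psmd2 (0.18), Psmc1 (0.13) and Psmd12 (0.12). Psmd14 RNA-Seq reads were 843 and 467 in WT and 605 and 501 in LRRK2 KO, and Psmd2 reads 2667 and 2324 against 3208 and 2434, so both pairs of groups overlapped. Above the level minimum, TE differences were lowest for Psmd2 (-0.16), Psmc1 (-0.12) and Psma3 (-0.04). They were highest for Psmc6 (0.50), Psma1 (0.36) and Psma5 (0.33). Psmc6 was the 1 member of 38 that was TE up, beside 6.23% of transcripts, and 0 were TE down, beside 6.02%. With 1 library per group and assay 0 to 3 members were TE up and 0 to 3 TE down, and the median TE difference of members lay between -0.29 and 0.44.

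Over 9514 transcripts limma called 0 members and 0 transcripts in LRRK2 KO for footprinting (0%), RNA-Seq (0%) and the interaction (0%), with 16, 7 and 4 transcripts at an unadjusted p under 0.05. Lrrk2 was not called here either, so the same limit holds. Leaving out 1 library in turn, limma called 0 again, with 9 to 21, 6 to 216 and 1 to 136 transcripts at an unadjusted p under 0.05. With the library batch as a block it called 13 (0.137%), 7 (0.0736%) and 0 (0%) transcripts, with 306, 401 and 190 at an unadjusted p under 0.05, and 0 members under either threshold. Lrrk2 was among the 13 and the 7 (log2 change -2.00, limma adjusted p = 2.1e-22 for footprinting and -1.49, limma adjusted p = 4.16e-08 for RNA-Seq, lower in 2 of 2 batches), where limma gave all transcripts of an assay 1 common spread. Microglial markers, with P2ry12 listed here and Trem2 not, differed between libraries in this table, with summed footprints of 116 and 707 in WT and 120 and 812 in LRRK2 KO, and astrocyte markers, 5 of 5 listed with Slc1a3 the most abundant, had 1207 and 2092 against 995 and 2154. The part of these markers in the batch differences of members was not tested.

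**Figure D3:**
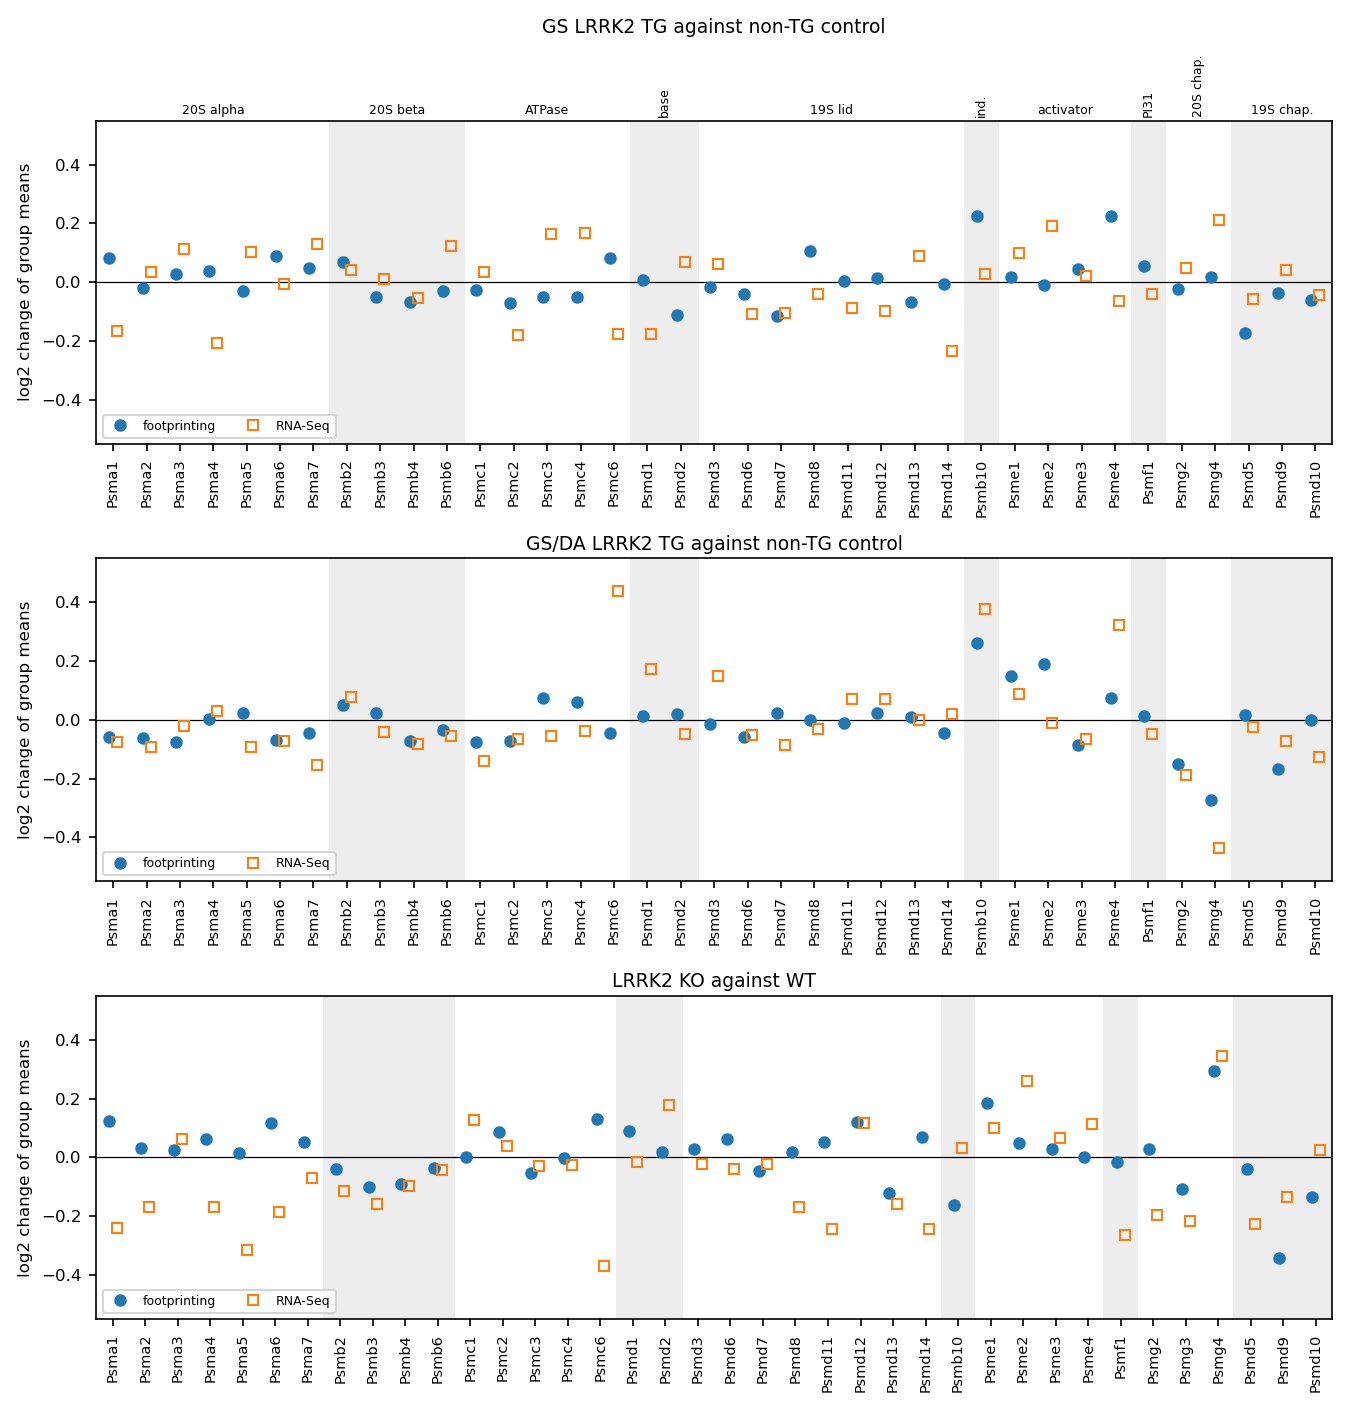
Log2 change of the footprinting (filled circles) and RNA-Seq (open squares) group means for each member in the 3 comparisons, grouped by role. The 11 core subunits lie within 0.1 of 0 for footprinting in both transgenic comparisons and 9 of 11 do in LRRK2 KO.

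Genes that work with the proteasome were taken from a list of 30, of which 26 were listed, with 27 transcripts. In GS LRRK2 TG, 2 of 27 were TE up, Uchl5 (TE difference 0.60), a deubiquitinase bound to the 19S particle, and Zfand5 (0.42), which binds the proteasome, beside 8.01% of all transcripts, and none was TE down, beside 3.91%. For GS/DA LRRK2 TG, 0 passed as TE up (3.65% of all transcripts) and 2 as TE down (7.36%), namely the ubiquitin ligase Ube3a (-0.62) and Uchl5 (-0.45). In LRRK2 KO, where 6.23% of all transcripts were TE up and 6.02% TE down, 3 were TE up, Ubqln2 (0.49), a shuttle for ubiquitin-tagged proteins, Usp14 (0.49), the second deubiquitinase bound to the 19S particle, and Zfand5 (0.44), while Rps27a (-0.58), which encodes ubiquitin fused to a ribosomal protein, was TE down. RNA-Seq carried most of each of these differences: for Uchl5 it changed by -0.43 in GS LRRK2 TG and 0.49 in GS/DA LRRK2 TG, and footprints by 0.17 and 0.04. Adrm1 and Shfm1, further 19S subunits, had footprinting changes of -0.05 and 0.05 in GS LRRK2 TG, -0.04 and -0.04 in GS/DA LRRK2 TG and 0.01 and 0.15 in LRRK2 KO. Pomp, the maturation factor of the core, had 0.03, -0.10 and -0.03, and Nfe2l1, a transcription factor of proteasome genes, had -0.06, 0.06 and -0.05. No gene of the list was called by limma in GS/DA LRRK2 TG or LRRK2 KO, with or without the batch block.

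The members were also described by features that the rule did not use. Their predicted 5′UTR folding energy had a median of -38.3 kcal/mol, against -91.15 over all transcripts of the transgenic tables, and ran from -733.28 for Psme4, the most structured, to -2.6 for Psmc6. Across members, folding energy and TE difference had a Spearman's rho of 0.15, 0.04 and 0.22 in the 3 comparisons (n = 37, 37 and 38 genes that share libraries). Over all transcripts it was -0.08, 0.11 and 0.07. GC content of the CDS and TE difference had a rho of -0.48, 0.31 and -0.37 among members. Over all transcripts with both values it was -0.46, 0.15 and -0.29. The part of base composition in the TE differences was not tested. The members lie on 15 chromosomes, 7 of them on chromosome 11, and Psme1 and Psme2 lie 5911 bases apart on chromosome 14. Among 3233 other transcripts above the level minimum in every group, Ppp2ca, a phosphatase subunit, had the 6 changes nearest to the median of the 20S and 19S subunits (root mean square difference 0.019), followed by Akr1b3 (0.026) and Fbxo25 (0.027).

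Promoters are shown because Nfe2l1 and its relative Nfe2l2 drive proteasome genes from antioxidant response elements, whose core is TGACNNNGC. Promoter windows from 250 bases before to 50 after the start, from RefSeq on GRCm38.p6, were matched for 33 of 38 members, and Psmb2, Psmc3, Psmd3, Psmd7 and Psmg2 had no entry. On either strand TGACNNNGC occurred for 5 of 33 members (15.2%) and for 13.99% of 27025 genes, and CCAAT for 11 of 33 (33.3%), 6 of the 10 matched core and 3 of the 12 matched 19S genes among them, and for 41.1% of all genes. None of these matches overlapped one of the other motif. The TGACNNNGC matches are printed 5′ to 3′ on the strand that reads the motif, which is in capitals, for Psmb6 at chr11:70525338-70525366 (plus strand), Psmc6 at chr14:45329587-45329615 (minus strand), Psmd12 at chr11:107479278-107479299 (minus strand), Psmd9 at chr5:123228149-123228177 (plus strand) and Psme4 at chr11:30771758-30771786 (minus strand).
Psmb6: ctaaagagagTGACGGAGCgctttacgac
Psmc6: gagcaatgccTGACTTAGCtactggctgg
Psmd12: ggggcaaatgTGACACAGCaga
Psmd9: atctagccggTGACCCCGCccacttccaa
Psme4: gctcttctggTGACGCTGCagccgcagcg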

How the data were processed

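Ribosome footprints and RNA-Seq reads came from 26 samples in the groups named above. All were of striatum except the ventral midbrain libraries, which were not analysed here. The authors deposited, per group and assay, the mean signal of reads in coding sequences after DESeq normalization. Per the labels and methods, reads were called with CASAVA 1.8 and aligned to mm9 with TopHat2 2.0.11 and Bowtie2 2.2.2, and DESeq 1.20 gave the size factors, separately for each of 3 tables. The tables also hold the authors' TE, TE differences and z scores, which were not used here, and a predicted 5′UTR folding energy in kcal/mol, deposited as the lowest over isoforms, which was used as other data on transcripts.

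Changes and TE were computed from group means without a pseudocount, and z scores from the mean and SD of the TE differences of a table, with a cutoff of 1.5. Library reads were recovered by solving each mean for the whole numbers of 2 libraries, and 97.8% to 99.8% of transcripts resolved, against 0.0523% to 4.65% after shifting the values. The recovery and the limma fits were tested on simulated data. Tests used limma 3.58.1 in R 4.3.3 on log2 normalized reads plus 10, with an adjusted p under 0.05 (Benjamini-Hochberg over all transcripts of a table), without a block, and with the library batch as a block as an alternative. Densities use the union of the CDS of a gene's isoforms. Python 3.11.15, numpy 2.4.6, pandas 2.3.3 and matplotlib 3.10.9 were used.

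Members and lists were chosen with earlier results of these data known. Named genes were drawn from a rule: per comparison, the 3 highest and 3 lowest TE differences, footprinting and RNA-Seq changes among members whose group means all reach a level minimum, the 3 highest and 3 lowest control densities and TE of each part of the complex (of which only some are printed), every chaperone, activator, inducible subunit and the inhibitor, members past the z cutoff, and the 3 transcripts most like the subunits. Psma1 and Psma7 as a pair, the library difference of Psmb2, and the pathway genes past the z cutoff were singled out after their values were seen. Some marker results are not reported here.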

Additional observations from a re-analysis of the deposited data

How the results depend on the processing

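No paired analysis was possible because the deposited columns carry no replicate number that could be matched in both groups of a comparison. This limit concerns pairing by replicate number. Libraries were instead paired into batches read from the values, and with that library batch as a block no member was called either. Not run were the length of the RefSeq protein, limma for GS LRRK2 TG, and single control libraries of the GS table. RNA-Seq density alternatives were chosen after seeing the data. Medians of members moved by less than the SD between libraries, and TE counts by less than 1.5 times, under a pseudocount of 10, a level minimum and centring (15 of 15 results each). limma called 0 members under every setting. Without a block and with all libraries it called no transcript at all, Lrrk2 included, also with a pseudocount of 1 and quantile normalization, so there the count for members could not differ from that of any other genes. With z from median and scaled MAD, 5 of 6 counts were the same and TE up in GS/DA LRRK2 TG went from 1 to 2. With the longest isoform as length, 14 of 18 density results moved by less than that SD, which is small for the 19S footprint SD; past it, the footprint SD of 19S subunits was 0.353 (GS table) and 0.365 (GS/DA table) and the 20S over 19S difference 1.08 and 1.12. The cause was not tested.

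With 1 library per group and assay (leave-one-out), GS/DA LRRK2 TG medians ran from -0.13 to 0.12 (footprinting), -0.33 to 0.22 (RNA-Seq) and -0.24 to 0.34 (TE), with 0 to 4 TE up and 0 to 2 TE down. LRRK2 KO medians ran from -0.0601 to 0.0887, -0.33 to 0.23 and -0.29 to 0.44, with 0 to 3 TE up and 0 to 3 TE down. In single control libraries of the GS/DA table the footprint SD was 0.164 to 0.219 (20S core) and 0.384 to 0.388 (19S), with a 20S over 19S difference of 1.15 to 1.21; RNA-Seq gave 0.685 to 0.712, 0.772 to 0.834 and 0.72 to 1.15. In WT these were 0.236 to 0.336, 0.328 to 0.388 and 0.68 to 0.90 for footprints and 0.386 to 0.6003, 0.445 to 0.495 and 0.44 to 0.70 for RNA-Seq. A lone library was assumed to vary like the other groups in limma. Depth limits the low-level members of the KO table, such as Psmg4 and Psme2.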
